A study of Mus musculus with 4 samples.

Results

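The peaks described here are those that the authors' deposited table assigns to 10 genes of TNF receptor signalling: the adaptors Traf1 to Traf7, the feedback inhibitor Tnfaip3 (A20), and the ubiquitin ligases Birc2 and Birc3 (cIAP1 and cIAP2). They were found by the gene symbol alone, for a group of genes chosen with earlier results of these data known, and number 62 of the 80881 peaks in the table. The table is from an ATAC-seq experiment, in which a transposase marks open chromatin, on KPC cells, a mouse lung adenocarcinoma line grown from a KP lung tumour. All cells carried lentiviral Cas9 selected with puromycin and a lentiviral CRISPR activation vector. In the group mA2 dRNA the guide was directed at Malat1, a nuclear long noncoding RNA, and in the group Con dRNA at luciferase, with 2 libraries in each group, described as biological replicates. The labels give no time after transduction and do not say whether the line is a single clone. The comparison asks whether chromatin at these genes was more or less open in cells with the Malat1 guide. Malat1 RNA was not analysed here.

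TRAF proteins are adaptors that gather at the inner tails of TNF receptors, and in the case of Traf6 of the IL-1 and Toll-like receptor complexes, and pass the signal on to the IkB kinases and to NF-kB. Traf2, Traf3, Birc2 and Birc3 together mark the kinase NIK for destruction, which holds the noncanonical arm of NF-kB low in resting cells. Traf1, Tnfaip3 and Birc3 are themselves well known targets of NF-kB, so they form part of the feedback in the pathway.

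Each value below is the authors' mean normalized read count of a peak in a group. Every one of the 62 peaks is 401 bp wide, so width does not differ between them. Other influences on the level of a peak were not examined, and levels set side by side between peaks are a description of reads. Differences are log2 of the mean with the Malat1 guide minus log2 of the mean with the luciferase guide, and where a pair of values is given without labels the Malat1 guide comes first. Only peaks with an adjusted p below 0.05 in the authors' deposited table are called here, and the words rose and fell are kept for them. Columns for single libraries could not be tied to a sample by name and were left aside. No spread between libraries therefore stands beside the means, and whether a difference exceeded it rests on the authors' p-values. In such bulk samples fewer cells with an open site and less opening per cell cannot be told apart. Coordinates are mm10. Of the 13 peaks assigned to Malat1 itself, 12 had a higher mean in mA2 dRNA and 1 was called. Their median difference was 0.23, where all peaks of chromosome 19 had a median of 0.20 and the 80881 peaks together 0.09. The check of the cell type was mixed: of 6 epithelial markers Cdh1, Krt8 and Krt18 had promoter peaks and Epcam, Cldn4 and Cldn7 had none, and of 5 markers of lung epithelium only Foxa2 and Sftpb did. Of the markers of other cells, 1 of 6 for leukocytes (Cd68), 1 of 4 for endothelium (Kdr) and 4 of 5 for fibroblasts and mesenchyme had a promoter peak, Vim the strongest at 820 and 701 reads. None of these promoter peaks was called. The summed reads of each marker group were higher with the Malat1 guide, from 368 to 539 for epithelium and 284 to 386 for lung epithelium. They went from 276 to 319 for leukocytes, 32 to 54.4 for endothelium and 1345 to 1571 for fibroblasts and mesenchyme. Of all 13620 promoter peaks, 63.9% had a higher mean with the Malat1 guide, and the ratio of their summed reads was 1.04. The part of the marker groups in the results was not tested.

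The upstream sequences of 4 of the genes are shown. The start-site peaks of Birc3 and Traf5 had the widest differences in either direction among the 10 genes, and Tnfaip3 and Traf3 are the members whose RefSeq promoter window held a match to the NF-kB site. Each sequence is from the 250 bases before a start site on the gene's own strand, 5′ to 3′, from RefSeq (GRCm38.p6, the assembly that mm10 names). Bases inside the RefSeq bounds of the gene, 35 in Birc3 and 49 in Traf3, where another transcript starts earlier, were left out. Capitals mark letter matches to the NF-kB site, the AP-1 site TGANTCA or the GC box GGGCGG, searched on both strands.
Birc3, chr9:7873206-7873420, minus strand: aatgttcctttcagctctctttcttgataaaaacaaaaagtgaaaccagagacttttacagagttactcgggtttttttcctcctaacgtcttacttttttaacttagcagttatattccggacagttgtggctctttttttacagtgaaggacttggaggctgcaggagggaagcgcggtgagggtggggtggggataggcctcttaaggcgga
Traf5, chr1:192092600-192092849, minus strand: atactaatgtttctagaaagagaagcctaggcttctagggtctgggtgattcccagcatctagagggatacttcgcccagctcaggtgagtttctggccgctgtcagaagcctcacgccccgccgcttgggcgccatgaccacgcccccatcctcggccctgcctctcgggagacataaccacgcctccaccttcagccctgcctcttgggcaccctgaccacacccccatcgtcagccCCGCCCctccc
Tnfaip3, chr10:19015411-19015660, minus strand: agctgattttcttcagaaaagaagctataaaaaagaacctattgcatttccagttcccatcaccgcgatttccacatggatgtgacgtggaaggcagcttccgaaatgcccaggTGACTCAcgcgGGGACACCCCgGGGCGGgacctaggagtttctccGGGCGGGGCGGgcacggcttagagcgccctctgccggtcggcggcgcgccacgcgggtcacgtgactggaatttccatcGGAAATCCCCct
Traf3, chr12:111166120-111166320, plus strand: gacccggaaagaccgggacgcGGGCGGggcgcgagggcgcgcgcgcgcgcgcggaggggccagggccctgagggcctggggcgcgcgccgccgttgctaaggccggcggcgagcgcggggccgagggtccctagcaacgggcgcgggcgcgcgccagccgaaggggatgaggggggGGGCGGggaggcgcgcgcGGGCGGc

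All 10 genes were found in the RefSeq promoter table, with 12 windows of 300 bases between them, since Birc2 and Tnfaip3 have a pair of start sites each. The NF-kB site was matched in 2 of the 12 windows, against 8.46% of all 32851 windows. In Tnfaip3 the matches began 125 and 12 bases before the start site, and an AP-1 match, found in 7.81% of all windows, began at 136 bases, apart from the NF-kB matches. Traf3 had its match, GGGGATTTCC, 10 bases before the start, past the end of the stretch printed above, which is 84.6% G and C. The GC box was matched in 7 of the 12 windows, against 35.7% of all windows, and the last pair of GC boxes in Tnfaip3 share 1 base. The core letters of the CTCF site were matched in none of the 12, against 0.557% of all windows. The Birc3 upstream sequence held no match to any of the 4 motifs and was 44.2% G and C, and the Traf5 sequence held a GC box alone. The start-site peaks cover 189 of the printed bases in Tnfaip3, 179 in Traf5, 15 in Traf3 and 0 in Birc3, whose peak lies inside the gene. A match of letters is a description and does not show a bound site.

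No peak of these genes was called higher with the Malat1 guide, and a pair of distal peaks fell, one assigned to Traf1 and one to Traf3. Among the 62 peaks there were 0 higher calls and 2 lower calls from the authors' deposited table, against background shares of 2.23% higher and 0.507% lower over all 80881 peaks. In both directions together the members' share was 3.23% and that of all peaks 2.73%, so the number of calls was near the background. At an unadjusted p under 0.05 there were 2 higher and 3 lower peaks, where 8.86% of all peaks were higher and 2.85% lower by the same rule. The median difference over the 62 peaks was 0.04, with an interquartile range from -0.12 to 0.26, and over all peaks it was 0.09, from -0.15 to 0.37. A higher mean in mA2 dRNA was found in 36 of the 62 peaks (58.1%), against 60.8% of all peaks.

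**Figure D1:**
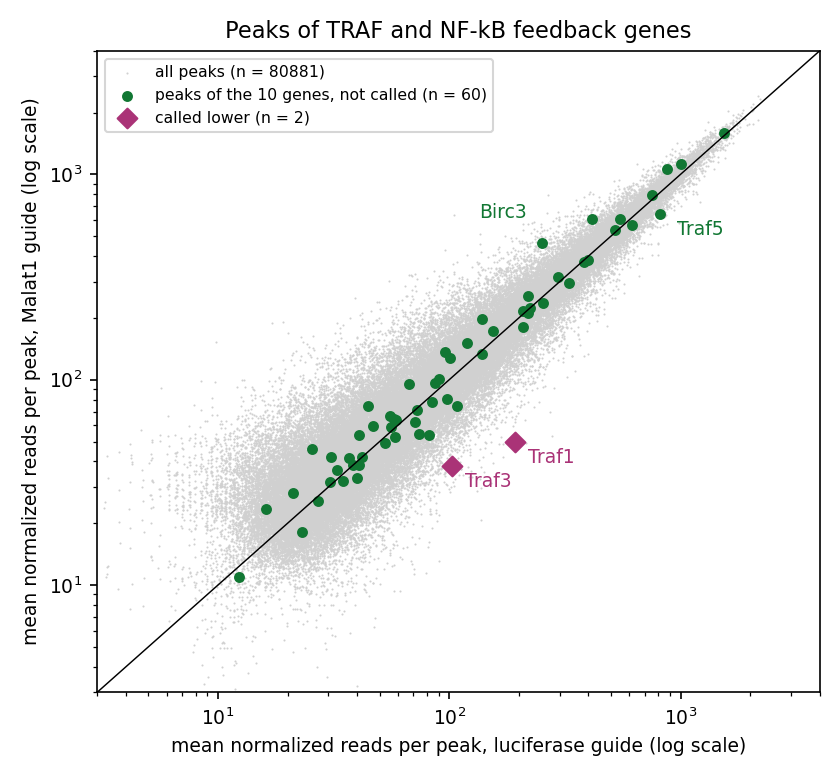
Mean normalized reads per peak with the luciferase guide (x axis, log scale) and with the Malat1 guide (y axis, log scale), for all peaks in grey, the 60 uncalled peaks of the 10 genes in green and the 2 called peaks as diamonds; the line marks equal means, and the few peaks beyond the axes are not shown. The green points lie along the line within the grey cloud, and the Traf1 and Traf3 diamonds lie below it at 193 against 49.8 and 103 against 37.8 reads.

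Traf1 is a TRAF protein without the RING domain that gives most other family members ligase activity, and it modifies signalling by Traf2. Of its 6 peaks, the called one is intergenic, 20.4 kb upstream of the start site on chromosome 2, from 34982151 to 34982551. It held 193 reads with the luciferase guide and 49.8 with the Malat1 guide. That is 3.88-fold lower with the latter (log2 difference -1.96, adjusted p = 7.23e-05 and authors' log2 fold -1.63 in the authors' deposited table). Its p ranked 174 of the 80881 peaks. The next gene is closer than Traf1: the peak lies 778 bp past the end of Hc, which encodes complement C5 and is transcribed on the same strand, and inside the RefSeq bounds of the lncRNA Gm52552. The start site of Traf1 is nearer than that of Hc, 20.5 kb from the peak's centre against 86.2 kb. In RefSeq the lncRNA Gm46733 and the pseudogene Gm13450 also lie nearer than Traf1, with gaps to the peak of 18846 and 17232 bp against 20339 bp.

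None of the other 5 Traf1 peaks was called. The strongest of them, 3.32 kb past the start site in sequence annotated as a 5′ UTR, held 607 reads in mA2 dRNA and 545 in Con dRNA, and no peak lay within 3 kb of the start site itself. At 8.61 kb upstream the values were 96.9 and 86.8 reads, and at 3.49 kb upstream 42.2 and 41.8. A peak in an exon of Hc, 34.3 kb upstream of Traf1, held 41.9 and 30.8 reads, and one past the far end of Traf1, 22.6 kb from the start, 38.6 and 40.6. Their adjusted p lay between 0.843 and 0.998 in the deposited table.

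None of the peaks around the fallen Traf1 peak was called. Within 100 kb on either side lay 16 further peaks, assigned to Phf19, Traf1 and Hc, and 10 of them had a higher mean in mA2 dRNA and 6 a lower mean. Their differences ran from -0.35 to 0.45 with a median of 0.05, and none had an unadjusted p under 0.05. The nearest, 11.8 kb towards Traf1 and 13.9 kb into Hc, had differences of 0.16 and 0.45. The median over the 10 Mb window was 0.14, opposite in sign to the called peak.

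Traf3 holds back noncanonical NF-kB and takes part in interferon induction downstream of Toll-like receptors. Its called peak lies on chromosome 12, 61.2 kb before the Traf3 start, from 111104748 to 111105148, in intron 8 of 11 of a transcript of Rcor1, a corepressor that works with the demethylase LSD1. It held 103 reads with the luciferase guide and 37.8 with the Malat1 guide. That is 2.73-fold lower with the latter (log2 difference -1.45, adjusted p = 0.0136 and authors' log2 fold -1.11 in the authors' deposited table). By RefSeq bounds the start site of Rcor1 is 65.6 kb from the peak's centre and that of Traf3 61.4 kb, so the peak is almost as near to one as to the other. The call was lost at a threshold of 0.01 and with the Benjamini-Yekutieli adjustment of the p-values in the authors' deposited table (adjusted p = 0.161).

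At the Traf3 start site the levels were low for a promoter and close between the guides. The peak over the start held 101 reads in mA2 dRNA and 89.9 in Con dRNA, and the latter exceeded only 21.9% of the 13620 promoter peaks. The flanking promoter peaks held 71.0 and 72.5 reads 0.364 kb past the start, and 80.9 and 97.9 reads 0.884 kb before it. The strongest Traf3 peak, 1.52 kb upstream in an intron of the lncRNA 4930595D18Rik, held 256 and 220 reads. A weak intergenic peak 43.6 kb upstream held 18.1 and 23.1. None of these 5 was called, with adjusted p from 0.911 to 0.998 in the deposited table.

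Within 100 kb of the fallen Traf3 peak were 11 others, of which 6 had a higher and 5 a lower mean in mA2 dRNA, with a median difference of 0.10. The Rcor1 promoter held 600 and 625 reads. The widest difference among them was at a peak in intron 1 of Traf3, 20.9 kb inside the gene, which the table assigns to 4930595D18Rik and which is therefore not among the 62. It held 44.2 reads in mA2 dRNA and 18.2 in Con dRNA, 2.43-fold more, and was not called (p = 0.0169 and adjusted p = 0.237 in the authors' deposited table). Its direction is opposite to that of the fallen peak.

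**Figure D2:**
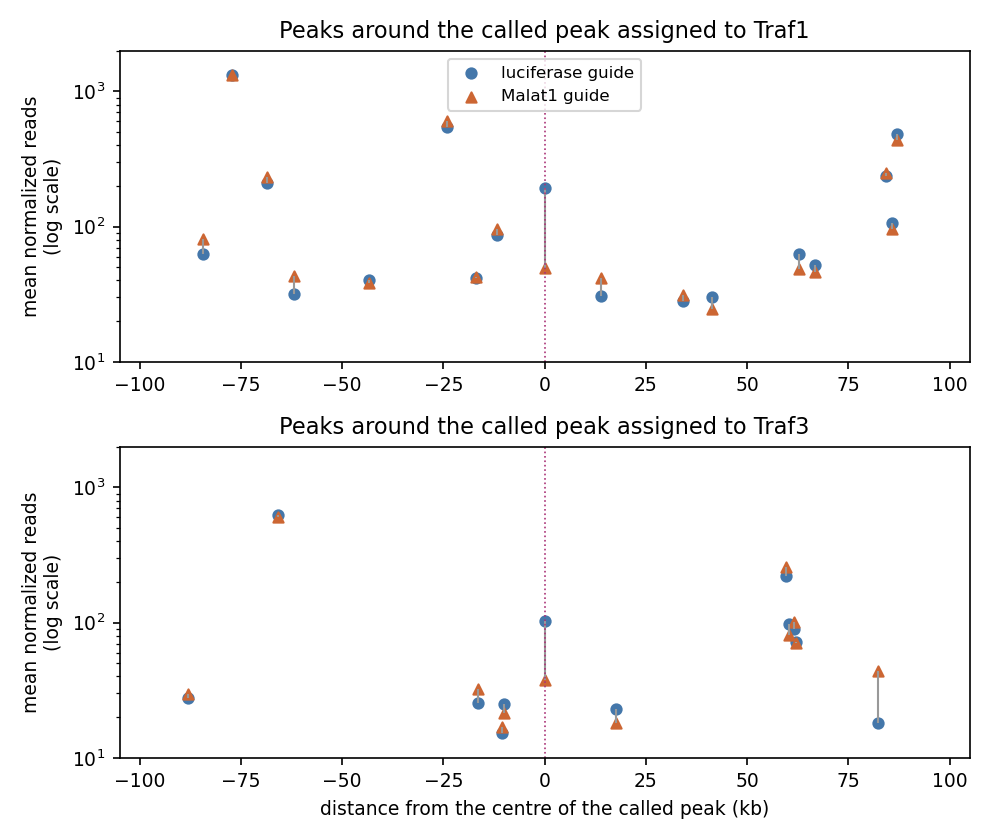
Mean normalized reads (y axis, log scale) of every peak within 100 kb of the called Traf1 peak (upper panel) and of the called Traf3 peak (lower panel), against the distance between peak centres in kb (x axis); circles are the luciferase guide, triangles the Malat1 guide, and grey lines join the values of a peak. The central peaks drop from 193 to 49.8 and from 103 to 37.8 reads while the uncalled peaks nearby lie close together, except the Traf3 intron peak at 82.3 kb with 44.2 and 18.2 reads.

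None of the peaks nearest to the start sites of the 10 genes was called. The order of their levels differed between the guides in that Birc2 passed Traf5, Birc3 passed Traf6 and Traf1, by its peak 3.32 kb past the start, passed Traf4 in mA2 dRNA. A peak lay within 3 kb of the start in 9 of the 10, all but Traf1, and 7 of the 9 had a higher mean in mA2 dRNA. Traf7, a WD40 protein without the usual TRAF domain, had the most reads. It held 1591 in mA2 dRNA and 1539 in Con dRNA, the latter above 99.6% of all promoter peaks. Traf2 followed with 1125 and 1009 reads and Birc2 with 797 and 753. Tnfaip3, whose product strips and rebuilds ubiquitin chains to shut NF-kB off, held 534 and 522 reads, a difference of 0.03. Traf4, an adaptor of epithelial junctions and TGF-beta signalling, held 568 and 617 reads, and Traf6, the ligase used by IL-1 and Toll-like receptors, 318 and 295. The adjusted p of these 6 ran from 0.725 to 0.994 in the authors' deposited table. No spread between libraries was available to say which neighbours in this order differ. Traf4 had a second promoter peak almost as near, 195 bp past the start against 193 bp before it. That peak held 128 and 101 reads, a difference of 0.34 against -0.12 at the nearest. It had the smallest p of the Traf4 peaks and was not called (p = 0.273 and adjusted p = 0.840 in the authors' deposited table).

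The exceptions in size, though not in call, were Birc3 and Traf5. Birc3 is induced by NF-kB and keeps the TNF receptor complex from switching to cell death. Its start-site peak, on chromosome 9 from 7872804 to 7873204, held 464 reads with the Malat1 guide against 251, 1.85-fold more, and the difference of 0.89 was larger than in 97.6% of promoter peaks. It did not pass the test (p = 0.00406 and adjusted p = 0.101 in the authors' deposited table, where the authors' own log2 fold is 0.52). Traf5, a relative of Traf2 used by CD40 and other TNF receptors, had a start-site peak on chromosome 1 from 192092378 to 192092778 with 640 and 815 reads, a difference of -0.35 that was above only 5.36% of promoter peaks (p = 0.00588, adjusted p = 0.126 and authors' log2 fold -0.17 in the authors' deposited table). The Traf5 peak was called lower when differences were centred on the median of all peaks, with an adjusted p of 0.0290 computed from the authors' deposited table. It was not called under any of the 3 other centrings. Centring along abundance came closest to a call, with an adjusted p of 0.0507 computed from the same table.

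**Figure D3:**
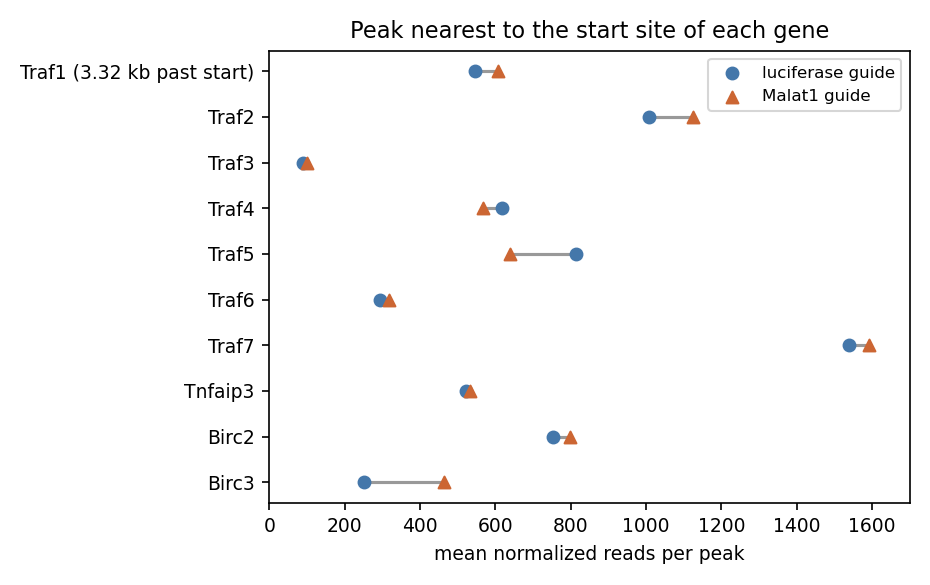
Mean normalized reads (x axis) of the peak nearest to the start site of each gene, with the luciferase guide (circles) and the Malat1 guide (triangles). Birc3, at 464 and 251 reads, and Traf5, at 640 and 815, have the widest relative gaps among the 10, and for Traf1 the nearest peak lies 3.32 kb past the start.

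In Traf5, 5 of the 6 peaks had a lower mean in mA2 dRNA, and the surrounding chromosome segment was lower as well. Intron and exon peaks from 14.9 to 30.5 kb past the start held 181 against 208, 296 against 330, 64.3 against 57.8 and 383 against 397 reads, the first value of each pair being with the Malat1 guide. The peak 14.8 kb upstream held 52.5 and 58.2. The 271 peaks of the same 10 Mb window had a median difference of -0.25, and with the differences centred by window that of the start-site peak was -0.10. The part of the segment in the Traf5 values was not tested.

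Birc2 and Birc3 are neighbours on chromosome 9, and 6 of their 7 peaks had a higher mean in mA2 dRNA. A second promoter peak of Birc2, 0.928 kb upstream, held 197 and 138 reads, a ratio of 1.43, and the weakest of all 62 peaks, 2.77 kb upstream of Birc2, held 10.9 and 12.3. Beyond its start site, Birc3 had 31.9 and 30.4 reads in its intron 5, 63.8 and 58.8 at 24.3 kb upstream and 23.5 and 16.2 at 29.1 kb upstream. Summed over its 4 peaks, Birc3 held 583.7 reads in mA2 dRNA and 356.9 in Con dRNA, a ratio of 1.64, most of which is the start-site peak. Their 10 Mb window had a median difference of 0.18. After centring on it, the difference at the Birc3 start-site peak was 0.70, with an adjusted p of 0.339 computed from the authors' deposited table. The part of the segment in the Birc3 values was not tested.

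Tnfaip3 had the most peaks, 17, over a span from 84.0 kb past the start to 46.4 kb before it, and none was called. Close to the gene the guides gave nearly equal means: besides the start-site peak, an intron 2 peak held 215 and 209 reads, an exon peak 133 and 138, and a peak 1.32 kb upstream 211 and 220. The strongest distal peak, 30.3 kb upstream, held 376 reads in mA2 dRNA and 384 in Con dRNA. Farther out the signs differed by side. Of the 7 peaks more than 10 kb past the start, 6 had a higher mean in mA2 dRNA, led by the neighbouring peaks at 51.5 kb (46.0 and 25.5 reads) and 50.4 kb (74.4 and 44.5 reads). Of the 6 peaks more than 10 kb before the start, 5 had the lower mean, led by those at 11.0 kb (53.7 and 81.9 reads) and 31.8 kb (74.5 and 108 reads). These sides were compared after their values were seen and carry no test, and the smallest p among the 17 was 0.106 (adjusted p = 0.604 in the authors' deposited table).

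**Figure D4:**
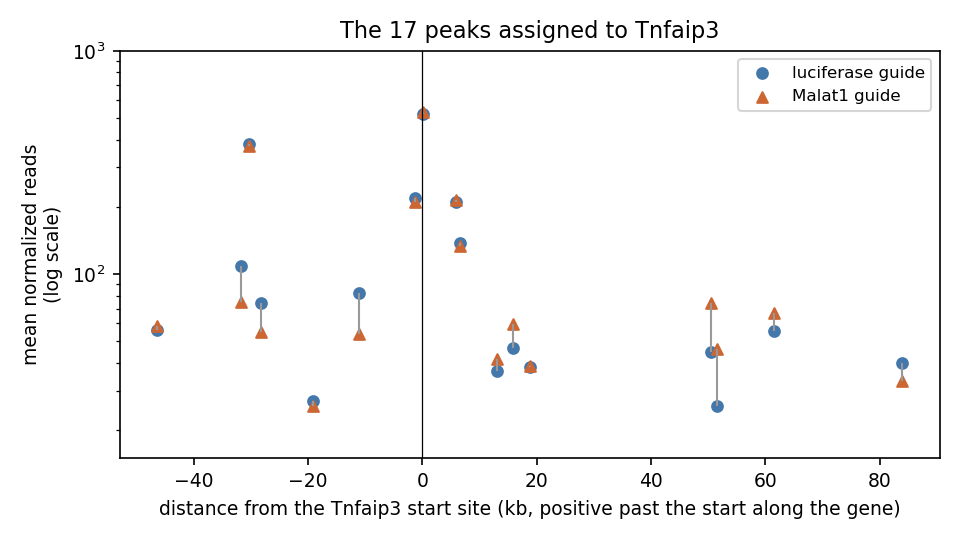
Mean normalized reads (y axis, log scale) of the 17 peaks assigned to Tnfaip3 against the distance from its start site in kb (x axis, positive past the start), with the luciferase guide as circles and the Malat1 guide as triangles. The symbols coincide at the start (534 and 522 reads) and at the strong upstream peak (376 and 384), and separate at weaker peaks such as those at 50.4 and 51.5 kb.

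The remaining adaptors varied in degree. In Traf2, which recruits the cIAP ligases to TNF receptors, 4 of 5 peaks had a higher mean in mA2 dRNA. Its peak in intron 4 of 10 was the only other peak of the 62 with an unadjusted p under 0.05, and held 1068 and 870 reads, a ratio of 1.23 (p = 0.0119 and adjusted p = 0.193 in the authors' deposited table). A peak 2.48 kb upstream of Traf2 had a wider ratio, 1.46, with 607 and 416 reads, yet a larger p of 0.388 in the same table. Traf6 had 6 of 7 peaks with the higher mean, of which 4 lay 51.0 to 84.0 kb past its start site inside transcripts of Prr5l, a partner of the mTORC2 complex. Those 4 all leaned the same way, from 28.2 against 21.1 to 137 against 96.1 reads, and none was called. Their median difference was 0.46, where the 10 Mb window had 0.13. They were grouped after their values were seen and carry no test as a group. The smallest p among them was 0.113 (adjusted p = 0.619 in the authors' deposited table). Traf4 had 3 peaks higher and 3 lower, with differences from -0.19 to 0.34, and a pair of them lay in an intron of Fam222b. The second Traf7 peak, in its 3′ UTR, held 78.0 and 84.4 reads.

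**Figure D5:**
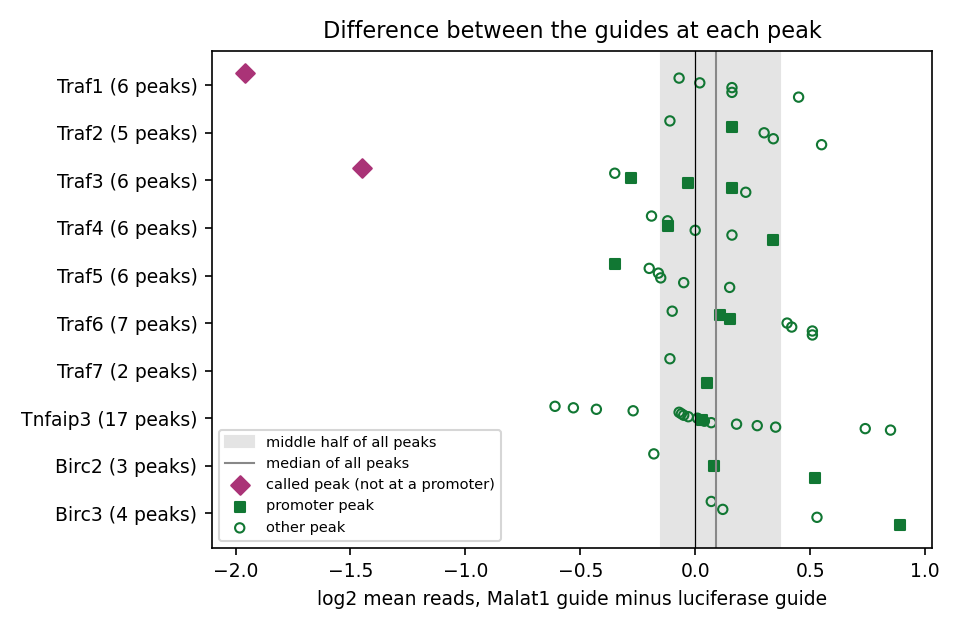
Difference between the guides at each of the 62 peaks by gene (x axis, log2 units; squares are promoter peaks, open circles other peaks, diamonds the called peaks), with the interquartile range of all peaks in grey from -0.15 to 0.37 and their median, 0.09, as a grey line. The Traf1 and Traf3 diamonds at -1.96 and -1.45 lie apart from the other 60 peaks, which range from -0.61 in Tnfaip3 to 0.89 in Birc3.

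Many of these assignments name a gene that the peak lies outside. Only 25 of the 62 peaks touched the RefSeq bounds of their own gene, and 9 lay over 50 kb from the start site. By the authors' annotation, 9 lay in a transcript of another gene with a matched symbol. The exon peak 14.8 kb upstream of Traf5 is not counted there, since its transcript was tied to no symbol. By class, 14 were promoter peaks (22.6%, against 16.8% of all peaks), 24 intergenic (38.7% against 33.3%) and 13 intronic (21.0% against 38.4%). Both called peaks lay outside the bounds of the gene they are assigned to. No promoter peak of the group was called.

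Other genes of the pathway were taken from a list of 53, among them the NF-kB subunits and inhibitors, the IkB kinases, TNF receptor partners and ubiquitin editors, of which 51 had 276 peaks in all. They gave 2 higher calls and 1 lower call, 1.09% of the 276 against 2.73% of all peaks, and their median difference was 0.16 against 0.09. The lower one, assigned to Tab2, an adaptor that carries the kinase TAK1 to ubiquitin chains, lay 268 kb from its start site in an intron of Ust and fell from 74.2 to 17 reads (adjusted p = 0.00467 in the authors' deposited table). A peak 32.5 kb upstream of Tank, a TRAF-binding protein, rose from 29.9 to 88.9 reads, and an exon peak of Ikbkb, a catalytic IkB kinase, from 192 to 368 reads (adjusted p = 0.0236 and 0.0169 in the authors' deposited table). The Ikbkb call was lost with centring by chromosome or by window, and the Tank call also with centring along abundance. The smallest p without a call belonged to peaks assigned to Tnfrsf1b, Nfkb2 and Map3k7. The Tnfrsf1b peak lay 20.9 kb upstream of the start in sequence annotated as a 3′ UTR (574 and 377 reads). The others were the Nfkb2 promoter (1262 and 902 reads) and a peak 604 kb from Map3k7 (50.2 and 17.4 reads). Each had a higher mean in mA2 dRNA, with adjusted p from 0.0612 to 0.0828 in the deposited table.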

How the data were processed

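Chromatin accessibility was measured by ATAC-seq with a commercial kit in 4 libraries, 2 per group. The build mm10 and the tools Bowtie2, MACS2, DiffBind, ChIPseeker, Picard, FastQC and deepTools are listed with no version, per the submitters' processing notes. What each did, and how duplicates, mitochondrial reads, the transposase shift and library scaling were handled, are points not given in the sources used here. Scaling bears on every difference between the groups. The deposited table gives, per the file headers, log2 mean normalized reads of each peak by group, made by the authors, the authors' log2 fold, and the authors' p-value and adjusted p-value for dmA12 against dLuc. These names were taken as mA2 and Con because the series holds a single contrast. Another 4 columns of per-library values match no sample label and were not used, so depth, spread and precision per library are unknown here. Because the deposited log2 fold lies closer to 0 than the difference of the deposited means (median ratio 0.767 over called peaks and 0.103 over the others, to which 60 of the 62 members belong), folds are ratios of the means. For uncalled peaks they are thus far larger than the authors' folds.

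The deposited adjusted p matched a Benjamini-Hochberg adjustment over all 80881 peaks within 7.40e-06, and was used as the test. For centred differences, the standard error implied by each difference and its p was kept, or, where the normal score was under 0.5, the running median over peaks of like abundance. The adjustment and the centring on the median were tested on simulated data (Python 3.11.15, statsmodels 0.14.6). The simulated differences had the normal spread that the centring assumes. The simulation therefore checks the computation and not whether that spread holds for these data. Centring along abundance, by chromosome and by window was not simulated. Alternatives were thresholds of 0.01 and 0.10, at least 2-fold, leaving out the lowest 25% of peaks by mean, 4 centrings, the Benjamini-Yekutieli adjustment, and peaks within 50 or 3 kb of the start site. The members, the gene lists and the motifs were chosen with earlier results of these data known. Named were each member's called, strongest, nearest (within 3 kb) and lowest-p peak, all peaks within 100 kb of a called one, and, of the pathway list, called peaks and the 3 next genes by p. Further member peaks were named after their values were seen. Motifs were searched in the RefSeq promoter table, since no genome was used here.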

Additional observations from a re-analysis of the deposited data

How the results depend on the processing

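The count of higher calls among the member peaks was 0 under all 11 alternatives. Several of these could not have added one. The threshold of 0.01, the 2-fold minimum and the Benjamini-Yekutieli adjustment can only remove calls, and centring on the median lowers every difference. The Traf1 call held under all 9 that bear on a single peak (adjusted p from 1.76e-05 to 8.61e-04), and the Traf3 call under 7 of 9 (0.00753 to 0.161). The count of lower member calls was 2 and became 1 with a threshold of 0.01, 1 with the Benjamini-Yekutieli adjustment, 1 with peaks within 50 kb and 0 within 3 kb, and 3, with the Traf5 start-site peak added, when centred on the median. The median difference of 0.04 became -0.05 when centred on the median or along abundance, -0.03 by chromosome, 0.06 by 10 Mb window, 0.02 with peaks within 50 kb and 0.11 within 3 kb. The pathway list's 2 higher calls became 0 at 0.01, by chromosome, by window, with Benjamini-Yekutieli and within 3 kb, 1 with at least 2-fold or centred along abundance, and 5 at 0.10. Its 1 lower call became 0 with Benjamini-Yekutieli, within 50 kb and within 3 kb. The median over all peaks was 0.09, and centring on it moved the calls over the whole table from 1801 higher and 410 lower to 1307 and 590. The split was 1293 and 560 along abundance, 1179 and 478 by chromosome and 1068 and 444 by window, and it was 867 and 169 at a threshold of 0.01 and 612 and 113 with Benjamini-Yekutieli. No paired analysis was possible because no column of a single library could be tied to a sample. For the same reason the count models, the fits without single libraries and the replicate block were not run.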
